A study of Mus musculus with 14 samples.

Results

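Ribosomal protein genes encode the protein part of the cytoplasmic ribosome, and their promoters were examined in 6 clones, each from a single cell, of the mouse mammary cancer line 4T1. They were chosen by name alone: the letters Rpl or Rps, a number and any of the endings a, x, l or a further number, plus Rplp0, Rplp1, Rplp2 and Rpsa. The rule found 87 promoter rows of 81 genes among 21965 rows of 20343 genes. A row is a promoter listed for a gene, and 5 genes had several rows. Clones E and T were intravasating, that is, able to enter the vasculature, and the non-intravasating ones were I, K, L and P. The 6 came out of 23 clones assessed as a pool, and no clone carried a further treatment in the labels. Genomic DNA was bisulfite converted and sequenced in 2 rounds per clone, and the deposited value was a methylation level from 0 to 1, with 1 value per clone and promoter. The read depth behind a level is unknown, and where a promoter begins and ends was not stated. A clone was the replicate, 2 against 4, and whether rounds were separate cultures was not stated, so that p-values measure only the spread between these 6 values, part of which may be technical.

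A ribosome is built from a large and a small subunit, each a scaffold of ribosomal RNA covered by proteins that are needed in nearly equal amounts. The genes of these proteins are transcribed in every dividing cell, mostly from promoters rich in CpG, the dinucleotide that carries DNA methylation in mammals. Such promoters are usually free of methylation, and methylation of a CpG-rich promoter goes with silence of its gene. A few ribosomal proteins have paralogues, later copies that are used in particular tissues such as the male germline or muscle. Expression was not measured here, so a methylation level says nothing of RNA or protein in these clones.

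Most ribosomal protein promoters were free or nearly free of methylation, and the exceptions were of 2 kinds. The promoters of Rpl10l, Rpl39l and Rpl3l, all paralogues, were methylated at 0.630 to 0.812 in the mean of 6 clones. Another 30 rows had intermediate levels, from 0.102 for Rpl17 to 0.364 for Rpl8. A row was termed unmethylated at a mean level under 0.1, intermediate from 0.1 to under 0.5, and methylated at 0.5 or more. By these limits 53 rows were unmethylated, or 60.9%, 30 were intermediate and 4 were methylated. Over all promoters 75.9% lay at 0.1 or more and 39.0% at 0.5 or more. The median row was at 0.0465, against 0.328 over all promoters. The rows on either side of the lower limit were Rpl17 at 0.102 and Rpl7l1 at 0.0976, and no row lay between Rpl8 at 0.364 and the lower Rpl3l row at 0.630.

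**Figure D1:**
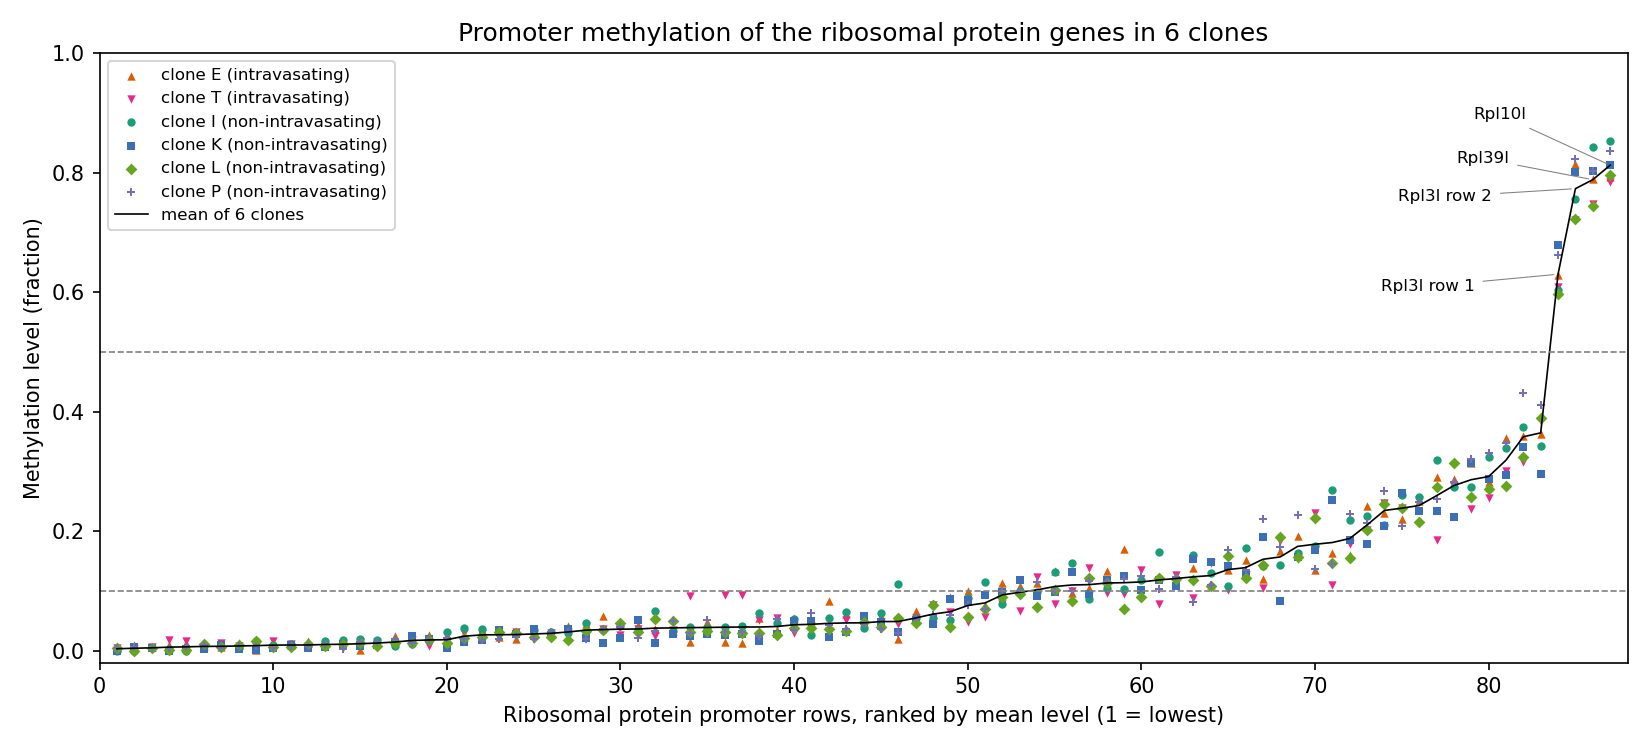
Methylation level (fraction) of the 87 ribosomal protein promoter rows on the vertical axis, ranked by their mean on the horizontal axis, with a symbol for each clone, the mean of 6 clones as a line and dashed lines at 0.1 and 0.5. The 4 rows of Rpl10l, Rpl39l and Rpl3l stand above 0.5 in every clone, and no other row reaches 0.5 in any clone.

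The following promoter sequences are shown so that the exceptions can be set beside unmethylated members by their CpG. They are the 250 bases before an annotated start, from RefSeq on GRCm38.p6, in lower case with each CpG in capitals, and they stand on the strand of the gene. Shown are the paralogues Rpl10l and Rpl39l with their X-linked parents Rpl10 and Rpl39, the paralogue Rpl3l from its upstream start, the X-linked Rps4x, and Rpl41, the intermediate promoter with the highest level among those with a sequence. Whether these bases lie within the promoters of the deposited table was not stated.
Rpl10l (chr12:66284402-66284651, minus strand): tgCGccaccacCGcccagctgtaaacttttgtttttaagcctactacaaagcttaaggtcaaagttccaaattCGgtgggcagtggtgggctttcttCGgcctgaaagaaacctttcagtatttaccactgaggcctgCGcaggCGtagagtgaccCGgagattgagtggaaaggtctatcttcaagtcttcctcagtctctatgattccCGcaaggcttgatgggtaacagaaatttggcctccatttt
Rpl10 (chrX:74270566-74270815, plus strand): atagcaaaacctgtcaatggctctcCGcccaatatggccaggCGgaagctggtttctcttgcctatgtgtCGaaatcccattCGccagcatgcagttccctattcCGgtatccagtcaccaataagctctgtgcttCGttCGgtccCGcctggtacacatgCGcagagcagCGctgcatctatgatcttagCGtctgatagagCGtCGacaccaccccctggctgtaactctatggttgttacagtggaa
Rpl39l (chr16:10169978-10170227, plus strand): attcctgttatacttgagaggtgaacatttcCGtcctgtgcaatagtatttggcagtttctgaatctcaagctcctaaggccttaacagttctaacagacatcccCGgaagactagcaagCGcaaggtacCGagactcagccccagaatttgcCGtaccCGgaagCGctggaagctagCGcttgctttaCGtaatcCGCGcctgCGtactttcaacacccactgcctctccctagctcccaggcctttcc
Rpl39 (chrX:37085223-37085472, minus strand): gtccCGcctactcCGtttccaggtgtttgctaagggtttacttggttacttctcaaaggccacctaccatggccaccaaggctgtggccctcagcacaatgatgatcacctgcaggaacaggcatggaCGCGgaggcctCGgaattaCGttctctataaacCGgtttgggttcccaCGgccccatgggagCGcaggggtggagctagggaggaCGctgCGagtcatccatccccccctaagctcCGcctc
Rpl3l (chr17:24727576-24727825, plus strand): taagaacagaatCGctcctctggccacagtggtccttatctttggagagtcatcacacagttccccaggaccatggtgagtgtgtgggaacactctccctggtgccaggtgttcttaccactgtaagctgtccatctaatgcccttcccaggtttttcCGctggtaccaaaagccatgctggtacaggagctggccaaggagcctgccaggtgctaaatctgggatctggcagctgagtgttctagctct
Rps4x (chrX:102189392-102189641, minus strand): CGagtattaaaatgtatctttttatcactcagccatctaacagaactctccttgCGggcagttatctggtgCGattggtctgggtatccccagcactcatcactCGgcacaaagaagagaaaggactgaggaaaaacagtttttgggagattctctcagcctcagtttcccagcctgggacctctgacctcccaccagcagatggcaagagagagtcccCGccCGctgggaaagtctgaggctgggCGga
Rpl41 (chr10:128549169-128549418, minus strand): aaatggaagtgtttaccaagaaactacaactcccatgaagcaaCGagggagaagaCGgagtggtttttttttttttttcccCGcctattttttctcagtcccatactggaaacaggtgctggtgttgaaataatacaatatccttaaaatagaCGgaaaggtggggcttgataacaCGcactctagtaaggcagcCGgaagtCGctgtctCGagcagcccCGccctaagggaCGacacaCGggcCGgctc

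Promoter sequences from RefSeq were at hand for 61 of the 81 genes, 72 promoters in all, with a median of 18 CpG in 250 bases, against 6 over 32851 promoters of 27025 genes. Rpl39l had 12 CpG and Rpl39 also had 12, at levels of 0.788 and 0.181. Rpl10l had 8 CpG and was at 0.812, whereas Rps4x with 7, Rpl6 with 5 and Rpl10 with 13 were at 0.00401, 0.0441 and 0.00312. Rpl6 was chosen after its values were seen, as the unmethylated member with the fewest CpG. Rpl3l was the member poorest in CpG, with 2 at the upstream start and 3 at the downstream start. Among all 14328 genes with both a sequence and a level, 46.4% of the 2116 genes with 6 to under 11 CpG were methylated, and 1 of the 10 ribosomal protein genes in that range was. From 11 to under 16 CpG, 26.2% of 2128 genes were methylated, and 1 of 14 ribosomal protein genes was. Across genes the Spearman rho of CpG count and level was -0.161 over the 61 ribosomal protein genes and -0.406 over the 14328, as a description, since genes are not independent replicates. Unmethylated and intermediate members had like CpG counts, with medians of 18 over 36 genes and 16.8 over 22 genes.

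**Figure D2:**
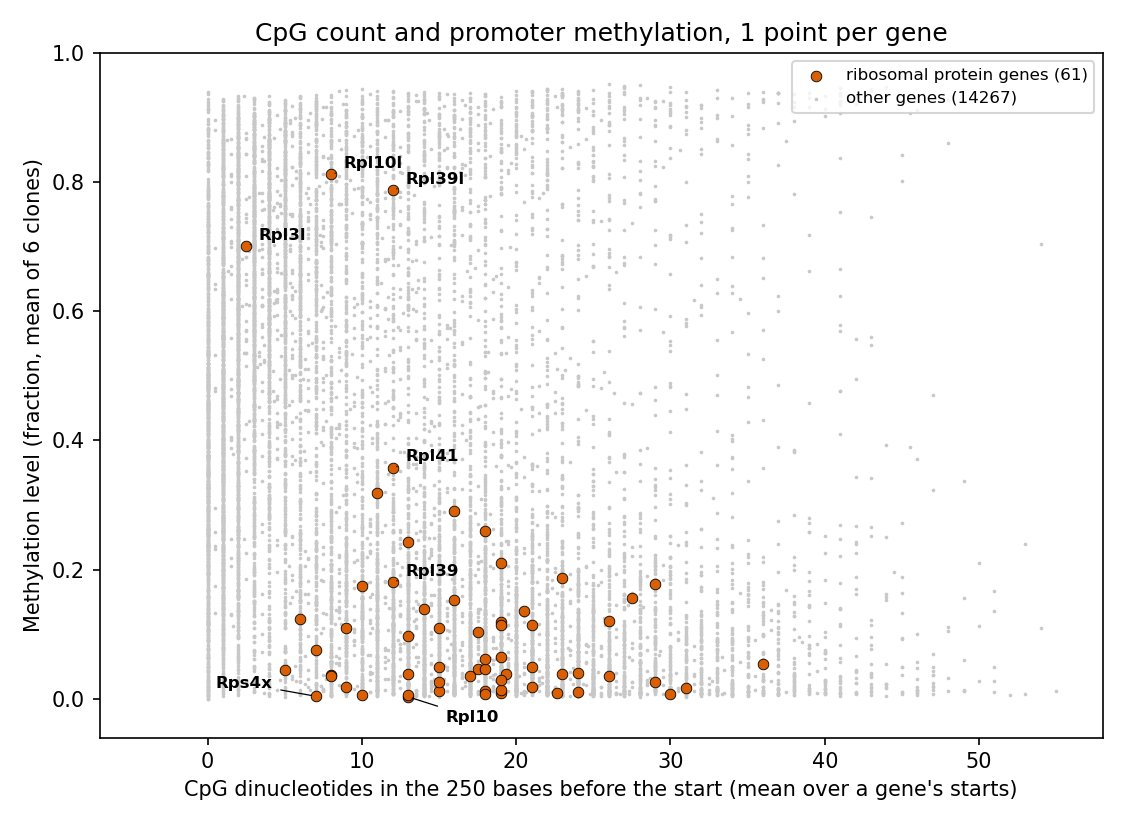
Promoter methylation level (fraction, mean of 6 clones) against the number of CpG in the 250 bases before the start, averaged over a gene's starts, with 61 ribosomal protein genes in orange and the other genes of 14328 in grey. Rpl10l and Rpl39l stand at 0.812 and 0.788 with 8 and 12 CpG, while Rps4x with 7 and Rpl10 with 13 lie near 0.

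The ETS motif CCGGAAG, searched on both strands in the same 250 bases, occurred in 19 of 72 ribosomal protein promoters, or 26.4%, and in 6.91% of all promoters. ETS factors such as GABP are known regulators of ribosomal protein genes, and their core motif holds a CpG. The methylated Rpl39l promoter held the motif, as did the intermediate Rpl41, Rps26, Rps7, Rps2, Rps10 and Rpsa and a start of Rpl19. The other promoters with it belonged to unmethylated genes. The GC box GGGCGG, the motif of Sp1, occurred in 50% of the ribosomal protein promoters and 32.7% of all promoters, and the TATA motif TATAAA in 4.17% and 12.4%. These are matches of letters and do not show that a factor was bound. The ribosomal protein promoters held more CpG, with a median of 18 against 6, and no share at matched CpG counts was computed. Overlapping promoters of a gene with several starts were each counted.

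Rpl10l is an intronless copy of the X-linked Rpl10 that is used in the mouse testis, where the X chromosome is silenced during meiosis. Its promoter, on chromosome 12, was at 0.793 and 0.785 in the intravasating clones E and T, and at 0.852, 0.812, 0.796 and 0.836 for I, K, L and P. The promoter of Rpl10 was at 0.00583 and 0.00494 for E and T, at 0.00368 and 0.00427 in clones L and P, and at exactly 0 in clones I and K. It was the lowest of all 87 rows, so the copy and its parent took the highest and the lowest place.

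Rpl39l is a paralogue of Rpl39 known from male germ cells of the mouse. Its promoter, on chromosome 16, was at 0.789 and 0.747 for E and T, and at 0.842, 0.803, 0.744 and 0.802 for I, K, L and P. Rpl39, a small protein of the exit tunnel of the large subunit, was at 0.164 and 0.110 for E and T, and at 0.268, 0.252, 0.147 and 0.146 for I, K, L and P. The lowest clone of Rpl39l thus lay far above the highest clone of Rpl39.

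Rpl3l is the form of Rpl3 found in heart and skeletal muscle. It had 2 rows, which the table does not tie to a start. The first was at 0.629 and 0.608 for E and T, and at 0.603, 0.679, 0.597 and 0.663 for I, K, L and P. The second was higher in all 6 clones, at 0.814 and 0.721 for E and T, and at 0.757, 0.801, 0.721 and 0.823 for I, K, L and P. Rpl3, which helps to form the peptidyl transferase centre, was at 0.00833 ± 0.00663 (SD, n = 6).

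The other 4 paralogues on the list were not methylated. Rpl22l1, the paralogue of Rpl22, was at 0.188 ± 0.0301 (SD, n = 6), and Rpl22 had no row under that name. Rps27l, known as a target of p53, was at 0.136 ± 0.0267 and its parent Rps27 at 0.0465 ± 0.00638 (SD, n = 6 each). The levels of Rps27 were equal to those of the row named Gm9846 in every clone, so these names cannot be told apart here. Rpl7l1 was at 0.0976 ± 0.0176 and Rpl7 at 0.0464 ± 0.0148 (SD, n = 6 each). Rpl36al, at 0.0546 ± 0.00656 and with 36 CpG the promoter richest in CpG, lay below the X-linked Rpl36a at 0.153 ± 0.0437 (SD, n = 6 each). Without the 7 paralogues 79 rows of 74 genes were left, of which 51 were unmethylated, 28 intermediate and 0 methylated, and the highest level in any clone was 0.432.

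**Figure D3:**
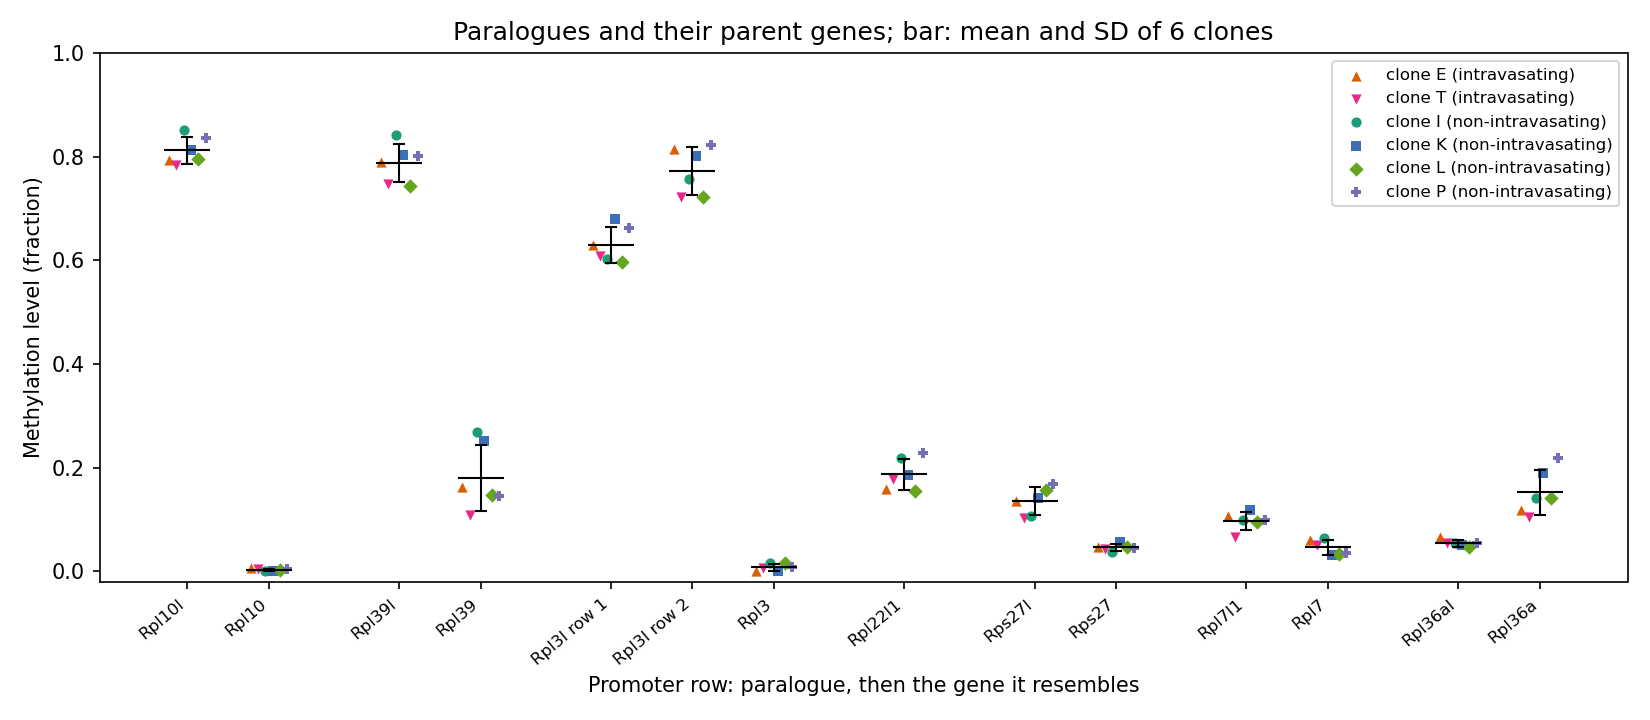
Methylation level (fraction) of 7 paralogues, each followed by the gene it resembles where that gene was measured, with a symbol per clone and a bar for the mean and SD of 6 clones. Rpl10l, Rpl39l and both Rpl3l rows lie above 0.5 in all clones, while Rpl22l1, Rps27l, Rpl7l1 and Rpl36al lie under 0.25 with the genes they resemble.

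Among the other large subunit genes 15 of 46 rows were intermediate. Rpl8, which lies close to the peptidyl transferase centre, was the highest, at 0.363 and 0.385 for E and T, and 0.342, 0.296, 0.390 and 0.411 for I, K, L and P. Rpl41, the smallest ribosomal protein, was at 0.359 and 0.316 for E and T, and 0.375, 0.341, 0.325 and 0.432 for I, K, L and P. No clone of either gene was under 0.29, so their level was shared by all 6 lines. Rpl26, known in human cells to bind the p53 mRNA, was at 0.291 ± 0.0295, Rpl36 at 0.276 ± 0.0293, and Rpl21 at 0.235 ± 0.0228 (SD, n = 6 each). Rpl5, which carries the 5S RNA into the ribosome and binds the p53 regulator MDM2, was at 0.174 ± 0.0290 and Rpl34 at 0.157 ± 0.0394 (SD, n = 6 each). The remaining autosomal ones were close to the limit: Rpl24 at 0.123, Rpl37a at 0.118, the second of the 2 Rpl19 rows at 0.113, Rpl12 at 0.110, Rpl23a at 0.107 and Rpl17 at 0.102. Rpl12 lies at the base of the stalk, and Rpl23a and Rpl17 lie at the mouth of the exit tunnel. The first Rpl19 row was at 0.0933 and Rpl32 at 0.0798, among the highest under the limit.

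Among the small subunit genes 12 of 30 rows were intermediate. Rps26, a protein at the mRNA exit channel, was the highest, at 0.356 and 0.2999 for E and T, and 0.339, 0.293, 0.276 and 0.347 for I, K, L and P. Rps7 was at 0.259 ± 0.0467 and Rps24 at 0.243 ± 0.0154 (SD, n = 6 each). Rps7, Rps24 and Rps26 are among the genes mutated in human Diamond-Blackfan anaemia, a failure of red cell formation. Whether genes of this disease were more often intermediate than other members was not tested. Rps2 was at 0.178 ± 0.0407 (SD, n = 6). Rps15 was at 0.139, Rps20 at 0.126, Rps10 at 0.121, Rpsa at 0.115, Rps16 at 0.114 and Rps3 at 0.110. Rps3 and Rps2 lie at the mRNA entry channel, and Rpsa is also known as a laminin receptor. Of the 3 stalk genes, whose proteins recruit elongation factors, Rplp0 was intermediate at 0.210 ± 0.0217 (SD, n = 6), whereas Rplp1 and Rplp2 were at 0.0362 and 0.0404.

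At the other end, 46 rows had a mean under 0.05 and 20 under 0.02. Next to Rpl10, the lowest was Rps4x at 0.00401. In 48 rows every clone was under 0.1, in 24 every clone was at 0.1 or more, and 15 had clones on both sides of that limit. Intermediate levels thus held in all clones for most of those genes: in 20 of the 30 rows each clone lay between 0.1 and 0.5. Level did not follow the length of the gene, with a Spearman rho of 0.0132 over the 78 genes under 0.5, again as a description across genes.

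Of the 81 genes, 4 lie on the X chromosome, and they were of both kinds. In female mouse cells an X chromosome is silenced and many of its CpG-rich promoters are methylated. 4T1 came from a female mouse, and the number and state of X chromosomes in these clones was not measured. Rps4x, of the small subunit, was at 0.00912 and 0.00293 for E and T, at 0.00552 and 0.00649 in clones K and P, and at exactly 0 in clones I and L. With Rpl10 it was among the 3 lowest rows. Rpl36a, of the large subunit, was at 0.119 and 0.104 for E and T, and at 0.141, 0.190, 0.142 and 0.220 for I, K, L and P. Rpl36a and Rpl39 were intermediate, and among the 916 promoters on X 19.0% were unmethylated and the median was 0.543, against 24.4% and 0.319 over 20936 on autosomes.

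Members differed more from each other than a member differed between clones. The SD of the row means was 0.166, or 0.0911 over the 83 rows under 0.5, and the median SD of a row over 6 clones was 0.0148. The median range over clones was 0.0393, against 0.0894 over all promoters. In 8 rows the range was at least 0.1, namely Rpl39, Rps7, Rpl8, Rpl41, Rpl36a, Rpl34, the second Rpl3l row and Rps16, whereas 43.8% of all promoters had such a range. Low levels leave less room for a range. The widest was 0.159 for Rpl39, with clones I and K above 0.25 and the other 4 under 0.17. In Rps7 clone T was at 0.185 and clone I at 0.320, with the others between. The ranks of the 87 rows were shared by the clones, with a Spearman rho of 0.909 to 0.973 over the 15 pairs of clones, a description of promoters that share their sequence and processing. Among unmethylated genes, 2 stood out in a clone and were chosen after their values were seen. Rpl35a was at 0.0933 in clone T and at 0.0136 in clone E, and at 0.0277 to 0.0406 in the non-intravasating clones, in its first row. Its 3 rows had nearly the same levels and are not independent. Rps12 was at 0.0202 and 0.0453 for E and T, and at 0.112 in clone I, against 0.0291 to 0.0545 in clones K, L and P.

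The contrast stated by the study set the intravasating clones against the others, and no ribosomal protein promoter was called. Levels were compared with limma over all 21965 promoters with Benjamini-Hochberg adjustment, and 0.00911% of all promoters were called at an adjusted p under 0.05. The smallest adjusted p of a ribosomal protein promoter was 1.00 by limma, and 3 of the 87 rows had an unadjusted p under 0.05, against 3.93% of all promoters. For a single promoter, an exact two-sided permutation test of 2 against 4 clones cannot go below 0.0667. The mean over the 87 rows was 0.123 and 0.114 for E and T, and 0.125, 0.116, 0.113 and 0.122 for I, K, L and P. This gives 0.118 ± 0.00651 (SD, n = 2) for the intravasating and 0.119 ± 0.00589 (SD, n = 4) for the non-intravasating clones, a difference of -0.000741. That difference turned positive without clone T, at 0.00386, without clone I, at 0.00139, and without clone P, at 0.000371, each smaller than the SD between clones.

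Of the 3 rows with an unadjusted p under 0.05, Rpl36a had the lower values in the intravasating clones, 0.112 ± 0.0106 (SD, n = 2) against 0.173 ± 0.0383 (SD, n = 4). Its difference was -0.0614 with an SE of 0.0269 (limma adjusted p = 1.00). Both intravasating clones lay below all others. Rpl39, also on X, had the widest difference of all members, -0.0664 with an SE of 0.0418 (limma adjusted p = 1.00), and its groups overlapped at clones E, L and P. Rps23, of the decoding site of the small subunit, was at 0.0128 and 0.0159 for E and T, and at 0.00195, 0.00148 and 0.00581 in clones K, L and P, with clone I at exactly 0. Rpl4, of the large subunit tunnel, was at 0.0102 and 0.0172 for E and T, at 0.00292, 0.00109 and 0.00368 in clones I, L and P, and at exactly 0 in clone K. The differences of Rps23 and Rpl4 were 0.0120 with an SE of 0.00502 and 0.0118 with an SE of 0.00508 (limma adjusted p = 1.00 for both). Differences of this size lie near the lower end of the scale, where the depth behind a level is unknown.

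**Figure D4:**
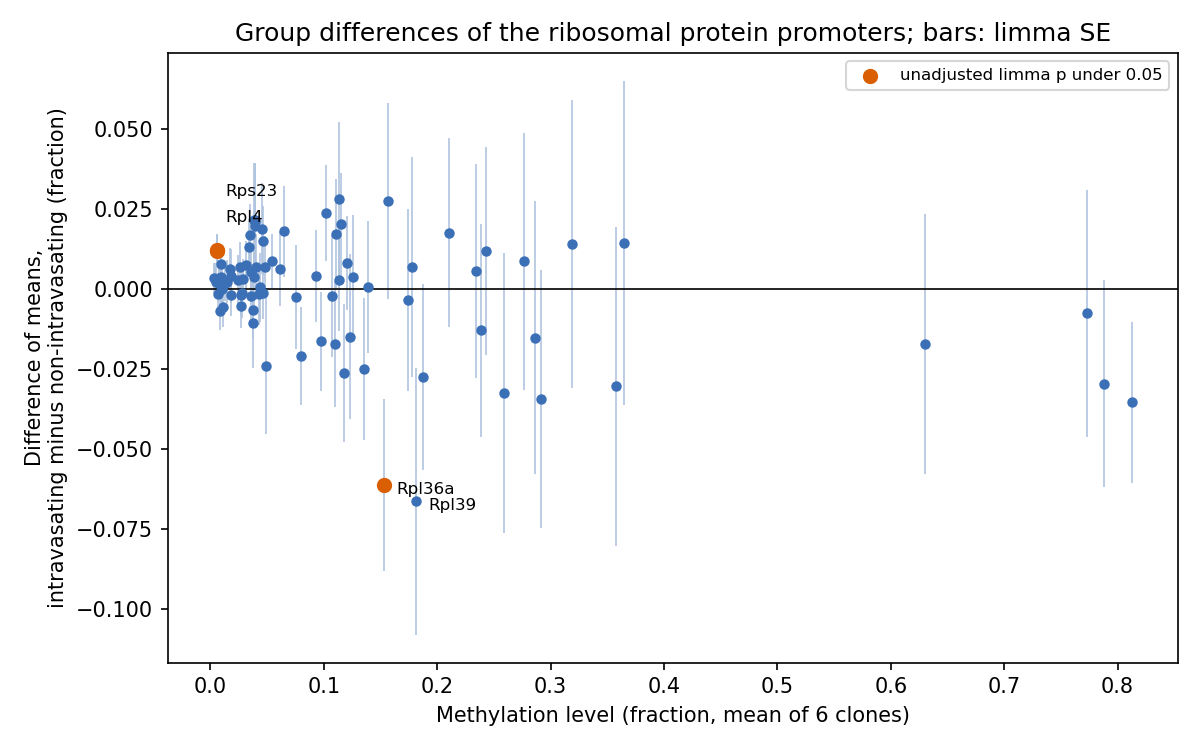
Difference of the group means (fraction, intravasating minus non-intravasating clones) against the mean level of the 87 ribosomal protein promoter rows, with limma SE as bars and the 3 rows with an unadjusted p under 0.05 in orange. Rpl36a at -0.0614 and Rpl39 at -0.0664 lie lowest, and all other rows lie between -0.04 and 0.04.

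The groups did not overlap in 9 of the 87 rows, against 11.2% of all promoters. In 7 rows both intravasating clones were higher, against 4.31% of all promoters, and in 2 they were lower, against 6.89%. The higher ones included Rpl10, Rpl4, Rps23, Rps18, Rpl36al and Rps10, and the lower ones were Rpl36a and Rpl10l. Rps18 was named after its values were seen. Rpl36a was the only row whose gap, 0.0217, reached 0.01, which is 1.15% of the rows, against 5.39% of all promoters. Without clone E 42.5% of the rows did not overlap, against 37.1% of all promoters, and without clone T 39.1%, against 34.0%. The shares were 20.7% against 17.4% without clone I, 16.1% against 15.9% without clone K, and 14.9% against 15.9% without clone P. Without clone L, 12 of the 87 rows did not overlap, against 5486 of the 21965 promoters, and with each clone centred on its median 2.30% of the rows, against 9.74%. The difference of means was above 0 in 52 of 87 rows, against 42.4% of all promoters. With each clone centred on its median over all promoters, it was above 0 in 67 of 87 rows, against 55.2%. Centring takes the same amount from every difference, namely -0.00745, the group difference of those medians. The median difference of the 87 rows was 0.00285, so this step alone can turn small differences positive. All 87 rows share the same 6 clones, so these directions are not independent.

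Other genes of the translation machinery were read beside them, with a list for each group. The 3 rows of ribosomal proteins with other names were unmethylated, among them Fau at 0.0706 and Gnb2l1, the gene of RACK1, at 0.00425. Of 77 rows of mitochondrial ribosomal proteins, which serve the separate ribosome of that organelle, 35 were unmethylated, 42 intermediate and 0 methylated, with a median of 0.105. Ribosome biogenesis genes, 58 rows, had a median of 0.0717 and RNA polymerase I genes, 14 rows, one of 0.0847, with 0 methylated rows in both. Translation factors and their binding proteins, 73 rows, had a median of 0.0648, and 7 were methylated. The highest 6 were Eif4ebp3 at 0.926, Gspt2 at 0.863, Eef1a2 at 0.856, Eif4e3 at 0.805, Eif5a2 at 0.684 and Eif4e1b at 0.596. The remaining one, named after its values were seen, was the Y-linked Eif2s3y, listed at 0.357 and 0.444 for E and T, and at 0.516, 0.567, 0.645 and 0.553 for I, K, L and P. 4T1 came from a female mouse, so what this Y-linked row measured is unknown. How reads of Eif2s3y were told from those of its X-linked copy was not stated. Like the methylated ribosomal protein genes, several of these are paralogues of a widely used gene. Examples are Eef1a2, the elongation factor form of muscle and neurons, and Gspt2, an intronless copy of Gspt1. Other members of such families were unmethylated, such as Eif4e2 at 0.0638 and Eif4ebp2 at 0.0271. These examples were picked by their level, and the paralogues in this list were not counted. Kinases and binding proteins of ribosomal proteins, 10 rows, had a median of 0.141, with Rps6ka6 at 0.732 and Rps6kl1 at 0.560 methylated. limma, adjusted over all promoters, called 0 rows in each of these lists, against 0.00911% of all promoters. The unadjusted p was under 0.05 in 4 of 77 mitochondrial ribosomal protein rows and 3 of 73 translation factor rows, against 3.93% of all promoters. It was under 0.05 in 0 rows of the other lists of the translation machinery.

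**Figure D5:**
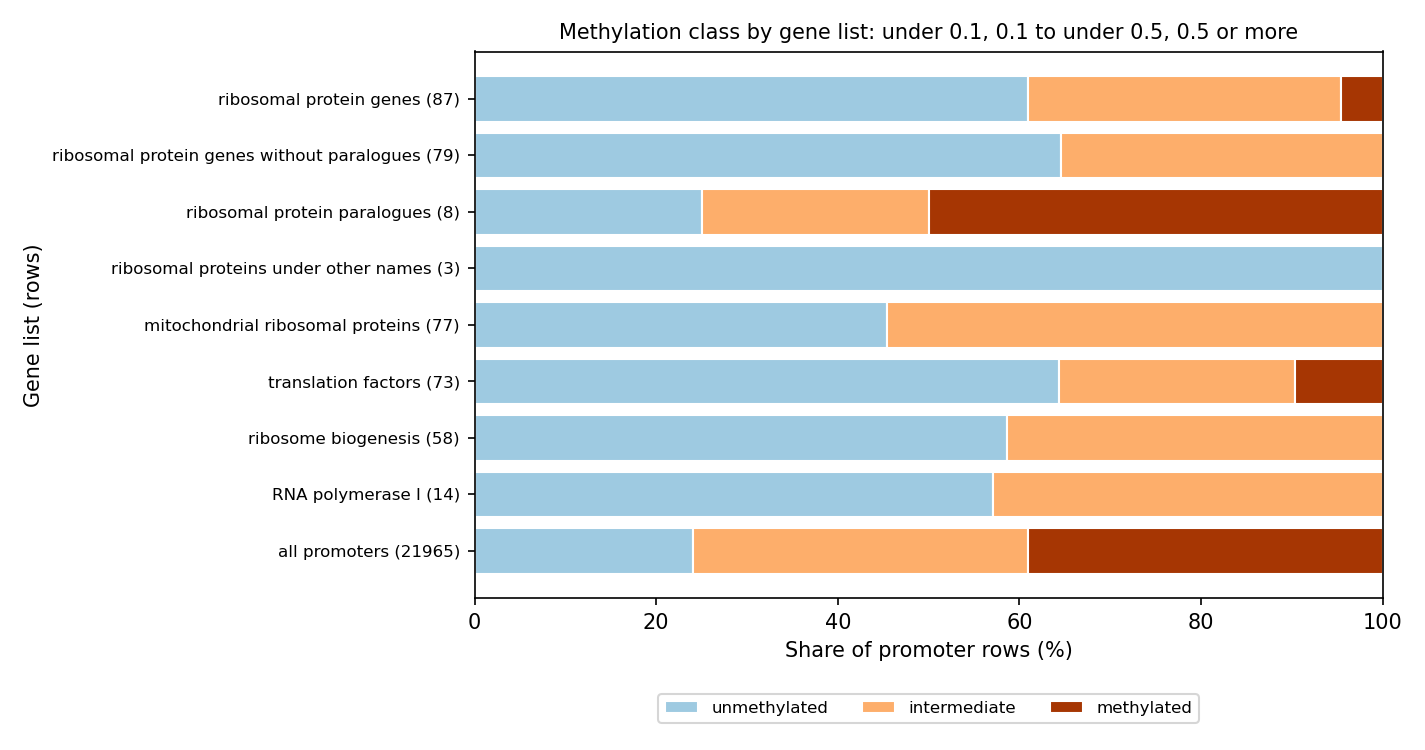
Share of promoter rows (%) that were unmethylated (under 0.1), intermediate (0.1 to under 0.5) and methylated (0.5 or more) by the mean of 6 clones, for ribosomal protein genes, their subsets, other lists of the translation machinery and all promoters, with the number of rows in parentheses. The methylated share is 4.60% for ribosomal protein genes, 0% without paralogues and 39.0% over all promoters.

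As a check of the label, promoters of epithelial markers were at 0.0856 for Cdh1 to 0.4996 for Krt19 over 6 genes, and those of the leukocyte markers Ptprc, Itgam and Cd3e at 0.641 to 0.790. Fibroblast markers went from 0.0597 in a Pdgfra row to 0.894 for Col1a2. Promoter methylation does not measure whether a marker is expressed.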

How the data were processed

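DNA of 14 libraries (6 clones and the parental line, 2 rounds each) was bisulfite converted and sequenced as paired-end reads, per the labels' protocols. The authors deposited fractions from 0 to 1, with 1 value per clone and promoter and no counts or coverage. Depth is therefore unknown and no counting interval is given. Per the submitters' processing notes, the tools were bedtools and DESeq and the build was mm10, without further detail. Not given in the sources used here are the aligner, the promoter boundaries, how rounds were combined and how reads of near-identical copies were treated. The parental line and the table of hypomethylated regions, which names no genes, were not used here.

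Rows alike in gene name and all 6 levels were counted once (22110 to 21965 rows, none of them a ribosomal protein row). The contrast was fitted by limma 3.58.1 under R 4.3.3, using eBayes with its trend option and Benjamini-Hochberg adjustment over all rows, and the step was tested on simulated data. Other values were computed with SciPy 1.17.1, NumPy 2.4.6 and pandas 2.3.3 under Python 3.11.15. Chromosomes and promoter sequences came from RefSeq, GRCm38.p6. All 81 genes matched by symbol. A further 4 RefSeq coding genes that fit the name rule had no row under their RefSeq names. Named were members at or above a mean or a range of 0.1, with an unadjusted p under 0.05, on X, at the ends of the unmethylated rows, or paired with an exception. A few genes that this rule or a list selects are counted but not reported here by name. The members, lists and tests were chosen with earlier results of these data known. No test was made of the ribosomal protein list as a whole.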

Additional observations from a re-analysis of the deposited data

Results flagged for a closer look

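In the 4 non-intravasating clones, 2 of 45 named rows had a clone far from the other 3 by Dixon's test, which flags about 1 in 20 groups by chance. Rpl23a was at 0.132 in clone I and at 0.0982, 0.102 and 0.0993 in clones K, L and P. Rpl5 was at 0.226 in clone P and at 0.164, 0.156 and 0.156 in clones I, K and L.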

How the results depend on the processing

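No ribosomal protein promoter was called by limma under any of the 14 alternatives (logit and arcsine scales, no mean trend, centred clones, a range filter, every row kept, a mean per gene, an adjusted p under 0.10, and each clone left out), but the range filter tested only 8 of the 87 rows. The smallest adjusted p was 0.527, without clone E. Without clone E or T the intravasating group is 1 clone, assumed to vary like the other group, so those fits say little of stability. Over all promoters limma called 2, and 0 without a mean trend, 5 after centring, 25 when tested only where clones spanned 0.1 or more, and 0 to 4 with a clone left out (4 without clone E, 0 without clone L). The 0 calls came with 943 promoters at an unadjusted p under 0.05 without a mean trend and 1691 without clone L. In the range filter, the span over the clones includes the group difference under test. A large difference thus helps a row to pass, so the 25 calls cannot be set beside the 2. The count of ribosomal protein rows at 0.1 or more was 34, and 33 to 34 with a clone left out, 41 at a limit of 0.05 and 15 at a limit of 0.2. Rows without overlap, 9 in all, became 2 (2.30%, against 9.74% of all promoters) after centring, which takes 0.296 to 0.352 from every row of a clone, 1 (1.15%, against 5.39%) at a gap of at least 0.01, and 12 to 37 with a clone left out. The difference of the clones' mean level, -0.000741, was 0.00671 after centring, 0.00535 for the median over rows, and -0.00534 to 0.00386 with a clone left out. The shift of this difference after centring is fixed by the all-promoter medians of the clones, whose group difference was -0.00745. The cause of the other shifts was not tested. Levels of the 45 named rows moved by at most 0.0175 with a clone left out. No paired analysis was possible because the rounds of a clone share 1 deposited value. Unknown depth limits what levels near 0 can show.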

Other observations

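Copies of ribosomal protein genes that the name rule leaves out were also read, and were chosen after their values were seen, apart from Rps4l. Rps4l, a copy of Rps4x annotated as a transcribed pseudogene and listed under its older name Rps4y2, was at 0.885 and 0.834 for E and T, and at 0.884, 0.878, 0.837 and 0.861 for I, K, L and P. The transcribed pseudogenes Rplp2-ps1 and Rps19-ps3 were at 0.928 ± 0.0116 and 0.821 ± 0.0324 (SD, n = 6 each), while Rplp2 and Rps19 themselves were at 0.0404 and 0.00942. Rpl34-ps1, which RefSeq lists as protein-coding, was at 0.150 ± 0.0387, close to Rpl34 at 0.157 ± 0.0394 (SD, n = 6 each). The rows of Rpl34-ps1 and Rpl34 ranked the 6 clones alike. Clone K was the lowest, at 0.0773 for Rpl34-ps1 and 0.0836 for Rpl34, and clone L the highest, at 0.182 and 0.190. Whether the rows are separate measurements was not tested.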
